A study of Mus musculus with 4 samples.

Results

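The Ring1B peak list of a ChIP-seq experiment in mouse embryonic stem (mES) cells was compared with input DNA, the fragmented chromatin sequenced without an antibody. All 10119 rows of that list with a full set of 18 fields were taken, which is every Ring1B peak of the list and 10119 of the 30047 peaks analysed in the 4 lists of the study. The cells were E14, an mES line of the 129/Ola strain, at early passage, grown in 2i medium, which holds 1 μM of PD0325901 against MEK and 3 μM of CHIR99021 against GSK, with 1000 U/ml of LIF, and fixed in 1% formaldehyde for 10 min. All libraries came from these unmodified cells in 1 culture condition, with 1 library each for Ring1B, input DNA, Dzip3 and ubiquitinated H2A (ubH2A), so that no value has a replicate error and no p-value was computed. Antibodies against Ring1B were raised in rabbits against a part of the protein. The listed heights imply 51.77 M reads for the Ring1B library and 48.30 M for input DNA, with 53.27 M for Dzip3 and 67.04 M for ubH2A, whose reads in the same peaks are given beside some results.

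Ring1B, encoded by Rnf2, is the core E3 ligase of Polycomb repressive complex 1 and attaches ubiquitin to histone H2A. In ES cells Polycomb complexes are known to sit at CpG islands of silent developmental genes, among them the Hox clusters and other genes for transcription factors and signalling molecules that are switched on only when the cells differentiate. A ChIP library is set against input DNA because fragments of some sequences, repeats above all, are counted more often than others in any library.

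The range of sequence under the peaks is shown by 7 stretches of 120 bases, all from the middle of a peak and written for the plus strand of mm9 with every CG dinucleotide in capitals. The first 4 belong to the peaks whose Ring1B reads exceeded the input reads most surely, ranked by the lower bound of the ratio.

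chr5:106586629-106586748: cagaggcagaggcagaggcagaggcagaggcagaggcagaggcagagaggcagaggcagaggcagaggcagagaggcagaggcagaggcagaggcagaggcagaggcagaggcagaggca

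chrX:64478804-64478923: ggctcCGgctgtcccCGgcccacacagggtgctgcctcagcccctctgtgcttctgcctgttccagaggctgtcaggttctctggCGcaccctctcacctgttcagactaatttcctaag

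chr9:121839760-121839879: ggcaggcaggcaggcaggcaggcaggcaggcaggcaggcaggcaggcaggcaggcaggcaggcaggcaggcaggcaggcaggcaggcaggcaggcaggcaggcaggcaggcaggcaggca

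chr2:73111748-73111867, in Sp9: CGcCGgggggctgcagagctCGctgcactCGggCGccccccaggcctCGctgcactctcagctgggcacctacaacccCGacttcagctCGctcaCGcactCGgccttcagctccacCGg

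The next pair come from the peaks at the other end of that ranking, where input reads exceeded Ring1B reads most surely.

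chr12:3109936-3110055: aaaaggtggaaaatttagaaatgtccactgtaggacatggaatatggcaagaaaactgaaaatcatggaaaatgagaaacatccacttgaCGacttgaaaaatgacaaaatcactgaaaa

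chrY:2865577-2865696: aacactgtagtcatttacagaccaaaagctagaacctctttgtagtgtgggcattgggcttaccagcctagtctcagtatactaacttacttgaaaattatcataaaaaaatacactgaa

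The last one comes from a peak at a gene of the developmental lists described further on.

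chr10:19077004-19077123, in Olig3: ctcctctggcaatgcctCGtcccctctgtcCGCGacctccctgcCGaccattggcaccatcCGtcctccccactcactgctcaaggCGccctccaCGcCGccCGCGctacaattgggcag

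The stretches from Sp9 and Olig3 hold 11 and 10 CG dinucleotides, with a GC content of 71.7% and 67.5%. The stretches on chromosomes 5 and 9 are as rich in G and C, at 65.8% and 75%, but are short tandem repeats of a CAG- or GGCA-containing unit with 0 CG dinucleotides. The stretch on X, with 61.7% GC, holds 3. The stretches on chromosomes 12 and Y, with 33.3% and 35.8% GC, hold 1 and 0. The one on chromosome 12 resembles the AT-rich major satellite of mouse pericentromeres, an identity taken from general knowledge and not checked against a repeat annotation here.

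Ring1B read density was higher than input at most Ring1B peaks. Density is given as reads in the peak per kb of its length and per M (mega) reads of the library, and the ratio is the Ring1B density over the input density. The median peak was 304 bp long and held 90 Ring1B and 6 input reads. Its Ring1B density lay in a narrow range, with a median of 6.09 and quartiles of 5.48 and 7.08, while input density had a median of 0.376 and quartiles of 0.152 and 0.999. The ratio had a median of 15.9 and quartiles of 6.26 and 25.2. It was at least 2 at 9087 peaks, or 89.8% (95% Wilson interval 89.2 to 90.4%), and below 1 at 379 peaks, or 3.75%. The exact 95% interval of the ratio, taken from the read counts, lay above 1 at 9497 peaks and below 1 at 224. The exact intervals cover counting error only, and not fully, since reads from amplified fragments are not independent molecules. The Wilson interval treats peaks as independent, though many lie close together and merging within 1 kb leaves 7607 regions. It holds no replicate error. At the same peaks Dzip3 over input had a median of 4.53 and ubH2A over input a median of 3.88. An excess over input at these peaks was therefore not particular to Ring1B.

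The peaks were called on Ring1B reads, so a Ring1B density above that of other libraries is in part built into the list. The lowest height was 31 extended reads, shared by 920 peaks. Input reads had no part in calling a region a peak of the list, but they were few. Input had 0 reads in 1072 peaks and fewer than 3 in 2762 (27.3%), and there the input count was set to 3, the number that a count of 0 still allows, so that these ratios are lower bounds. At the median length, 3 input reads correspond to a density of 0.204. A further limit is that 22 peaks, 19 of them close together on chromosome 9, were listed with fewer Ring1B reads than their own height, 1 of them with 0 reads.

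**Figure D1:**
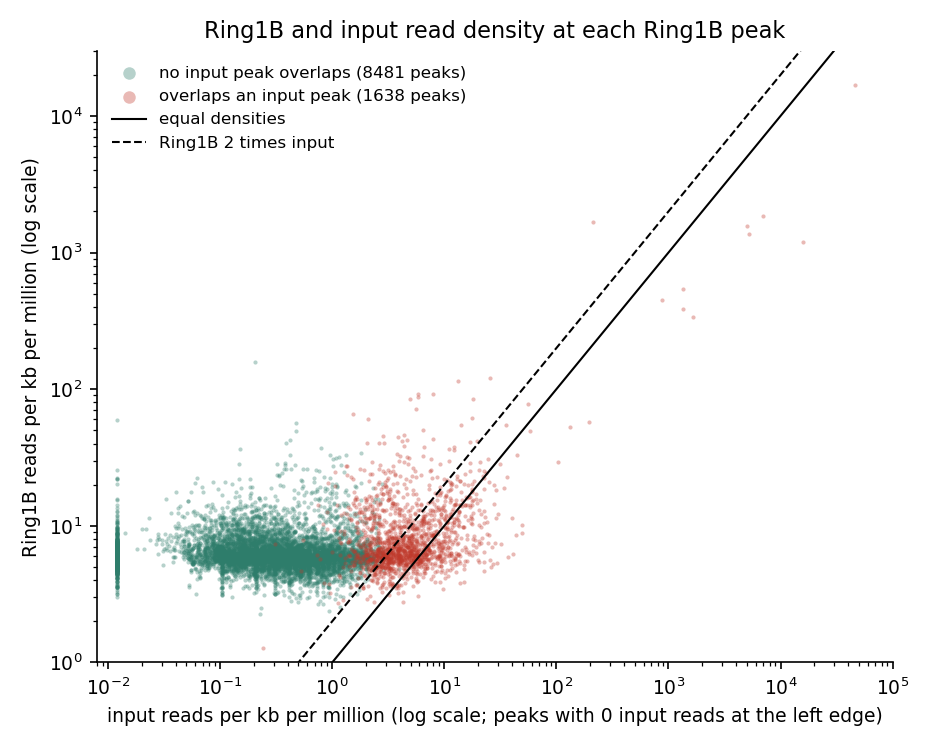
Each point is 1 Ring1B peak, with input reads per kb per M on the x axis and Ring1B reads per kb per M on the y axis, both log scales, and 17 peaks below 1 Ring1B read per kb per M fall outside the axis. The 8481 peaks that overlap no input peak form a flat band with a median of 5.995, and the 1638 that overlap an input peak lie around the lines where Ring1B is equal to input or 2 times input.

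The minority with low ratios coincided with peaks of the input library itself. Of the 10119 Ring1B peaks, 1638 (16.2%) overlapped a peak called on input DNA, and they had a median ratio of 1.65, with quartiles of 1.04 and 2.61. Their Ring1B density was somewhat higher than that of the other peaks, with medians of 6.91 and 5.995, but their input density was 4.26 against 0.288. Only 37.6% of them reached a ratio of 2. The other 8481 peaks had a median ratio of 18.97, 99.9% reached a ratio of 2 and 0 were below 1. All 379 peaks with a ratio below 1 overlapped an input peak. Input peaks were called on the same input reads that form the denominator of the ratio, so this split is a description and in large part fixes the low ratios. Where a Ring1B peak overlapped an input peak, 94.4% also overlapped a ubH2A peak and 86.5% a Dzip3 peak, against 21.4% and 22.1% of the peaks that overlapped none.

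A few very large peaks carried most of the reads. The 7 peaks with at least 100000 input reads each, on chromosomes 2, 6, 9 and 12, held 53.4% of the Ring1B reads and 94.6% of the input reads in the list, and their ratios ran from 0.0747 to 0.398. They alone took up 4.21% of the Ring1B library and 15.5% of the input library. Summed over all peaks, Ring1B over input was 0.482, below 1, and without these 7 it was 4.18. All other peaks together held 3.68% of the Ring1B library and 0.880% of the input library. For this reason the classes below are described by medians over peaks.

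At peaks called on the Dzip3 and ubH2A libraries, which were not chosen by Ring1B reads, Ring1B density was also above input more often than not. At Dzip3 peaks the ratio of Ring1B to input had a median of 4.67 and was at least 2 at 4836 of 6482, or 74.6%. At ubH2A peaks the median was 3.63 and 4447 of 6642, or 67.0%, reached 2. Summed over all peaks of each list, Ring1B over input was 0.377 at Dzip3 and 0.367 at ubH2A peaks, below 1. At Dzip3 peaks that overlapped no Ring1B peak the median ratio was 4.20, with a Ring1B density of 2.55 against an input density of 0.424. In turn, at Ring1B peaks with no Dzip3, ubH2A or input peak, Dzip3 over input had a median of 4.53. There ubH2A over input had a median of 3.96, so a ratio of this size was not particular to Ring1B. At input peaks, chosen for high input reads, the median of Ring1B over input was 0.303 and 407 of 6804, or 5.98%, reached 2. In the ubH2A and input lists a damaged row hides a block of peaks on chromosomes 1 and 10 to 12, so these counts cover the analysed peaks only, while overlaps of Ring1B peaks with these libraries were read from the percentages the authors listed.

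The 8 peaks with the highest lower bounds fell into 2 kinds by position. Of these, 4 lay inside genes for transcription factors of development, and 4 lay between genes. At Sp9 (chr2:73110676-73112940), a zinc finger factor gene, Ring1B had 2071 reads and input 6, a ratio of 322 (95% interval 148 to 879). At Neurod2 (chr11:98188114-98190508), a neuronal bHLH factor gene, the reads were 1888 and 6, a ratio of 294 (135 to 801). At Foxe1 (chr4:46356564-46358646), a forkhead factor gene, they were 1015 and 2, a ratio of 474 (131 to 3915). At Fezf1 (chr6:23197377-23198410), a zinc finger factor gene of the forebrain, they were 950 and 2, a ratio of 443 (122 to 3665). All 4 peaks had their midpoint in coding sequence, lay within 0.653 kb of a TSS and were longer than 1 kb, with a CpG observed over expected ratio between 0.780 and 1.02.

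The 4 intergenic peaks were shorter and had no gene start close by in most cases. The one on chromosome 5 (chr5:106586489-106586890) had 3281 Ring1B and 4 input reads, a ratio of 765 (299 to 2811), the highest lower bound of the list, and lay 253 kb from the nearest protein-coding TSS, that of Zfp326. Those on chromosome X (chrX:64478711-64479017, 940 Ring1B reads) and chromosome 9 (chr9:121839542-121840099, 737 Ring1B reads) had 0 input reads, so that with input at the floor of 3 reads Ring1B was at least 292-fold and at least 229-fold higher. That on chromosome 4 (chr4:13222909-13223307) had 454 Ring1B and 0 input reads, a ratio of 141 at the floor with a lower bound of 114. The Dzip3 library was also high at these 4 places, with 2527, 727, 369 and 297 reads and densities of 118, 44.6, 12.4 and 14.0. In the 4 peaks in genes it had 87, 144, 55 and 78 reads, with densities from 0.496 to 1.42. Input was low there, and with input counts under 3 set to 3, Dzip3 over input was 13.1 to 23.6. Likewise ubH2A over input was 13.2 to 17.8 at these 4, against list medians of 4.53 for Dzip3 and 3.88 for ubH2A. At the 4 intergenic peaks Dzip3 over input was 89.8 to 573. Their ubH2A over input was 6.84, 17.5, 43.0 and 68.2 on chromosomes 5, X, 9 and 4, not above the peaks in genes in every case. Of the 4 intergenic peaks, 4 lay on a Dzip3 peak and 3 on a ubH2A peak, while the 4 peaks in genes lay on neither.

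The 5 peaks with the lowest upper bounds all lay on chromosomes 9, 12 and Y. On chromosome 12 (chr12:3109680-3110312) there were 39156 Ring1B and 488850 input reads, a ratio of 0.0747 (interval 0.0740 to 0.0755). On chromosome 9 a peak of 38533 bp (chr9:2999976-3038509), the longest of the list, had 678913 Ring1B and 3111720 input reads, a ratio of 0.204. The 3 peaks on Y had 96, 68 and 166 Ring1B reads against 588, 403 and 873 input reads. The other 4 of the 5 longest peaks, 11205 and 8207 bp in Sfi1 on chromosome 11, 7267 bp on chromosome 8 and 6956 bp in Mid1 on X, had ratios of 3.37, 2.03, 2.45 and 3.20, and Dzip3 and ubH2A over input were of similar size there, from 1.96 to 3.15 and from 1.85 to 2.94. Each of these 5 overlapped peaks of all 3 other libraries.

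By distance to gene starts, the median ratio was highest at the start and lower in each class farther away, while median Ring1B density was similar in all classes. Of all peaks, 3723 (36.8%) lay within 4 kb of the TSS of a protein-coding gene. Peaks that held a TSS, 778 in number, had a median ratio of 32.7, with quartiles of 20.8 and 55.2. The median was 23.6 up to 1 kb, 19.5 from 1 to 4 kb, 14.6 from 4 to 10 kb, 10.3 from 10 to 100 kb and 8.98 beyond 100 kb. Over these classes median Ring1B density was 6.64 at a TSS and between 5.93 and 6.19 in the other 5 classes. Input density was 0.143 at a TSS and 0.658 beyond 100 kb. Ring1B density at a TSS was 1.11-fold higher than beyond 100 kb and input density 4.61-fold lower. Every peak had passed a minimum height in the Ring1B library, which holds Ring1B densities close together, so these values do not show how Ring1B itself varies with distance. The other antibodies followed input, with median Dzip3 densities of 1.08 at a TSS and 4.82 beyond 100 kb, and ubH2A densities of 0.885 and 3.43. Median GC content moved with distance as well, from 65.03% at a TSS to 48.2% beyond 100 kb, and its part in the densities was not tested.

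**Figure D2:**
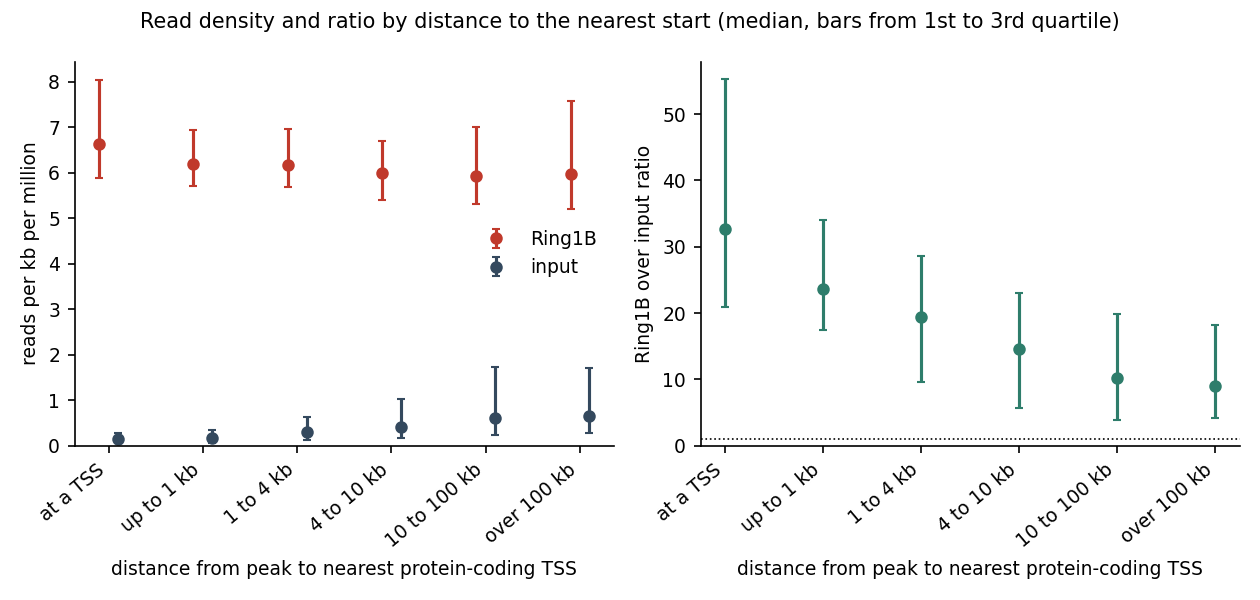
Left, median reads per kb per M for Ring1B and input in 6 classes of distance from the peak to the nearest protein-coding TSS, with bars from the lower to the upper quartile over peaks; right, the ratio in the same classes. Ring1B medians stay between 5.93 and 6.64 while the median ratio falls from 32.7 to 8.98.

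Peaks within 4 kb had 2.56 times the median ratio of peaks beyond 100 kb, 23.0 against 8.98. Input-overlapping peaks were 6.34% of the first and 21.9% of the second. Without them the medians were 24.3 and 12.4, a factor of 1.96. Summed reads of all peaks gave a factor of 0.884 instead, in the other direction. Of the 7 very large peaks, 4 lay within 4 kb of an annotated start, and with the 7 left out the summed value was 4.45. Fewer than 3 input reads were found in 42.3% of the peaks that held a TSS and in 18.7% of those beyond 100 kb, so more of the ratios near starts are lower bounds.

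In gene structure, peaks were spread over exons, introns and intergenic sequence in other proportions than the genome. The midpoint lay in an exon at 2188 peaks (21.6%), in an intron at 3687 (36.4%) and between genes at 4244 (41.9%), where the sequenced bases of mm9 divide into 3.40%, 37.7% and 58.9%. The median ratio was 25.2 in exons, 15.1 in introns and 10.7 between genes, while summed reads gave 0.489, 0.368 and 0.856, highest between genes. Within exons, 1381 midpoints lay in coding sequence, 420 in a 5′ UTR, 117 in a 3′ UTR and 270 in exons of transcripts without coding sequence. The median ratios were 28.0 in 5′ UTRs, 26.1 in coding sequence, 18.04 in 3′ UTRs and 17.3 in noncoding exons. Summed reads gave 27.1, 0.448, 7.20 and 4.42, lowest in coding sequence. Median input densities in the same order were 0.132, 0.154, 0.316 and 0.344, while Ring1B densities lay between 5.99 and 6.32. In the 5′ UTR class 56.2% of peaks had fewer than 3 input reads.

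Peaks rich in CpG had higher ratios than the others, with a lower input density and a similar Ring1B density. A peak was called CpG-rich when the 300 bases at its midpoint had at least 50% GC and a CpG observed over expected ratio of at least 0.6, the usual form of the CpG island definition. This held for 2798 peaks (27.7%), 2064 of them within 4 kb of a TSS and 734 farther away. For comparison, 40.2% of the windows from 250 bases before to 50 after the annotated transcript starts of protein-coding genes were CpG-rich, and 0.338% of input peaks. CpG-rich peaks had a median ratio of 27.4, and 1.18% overlapped an input peak. Other peaks had a median ratio of 10.7, and 21.9% overlapped an input peak. The difference was present at either distance, with 29.2 and 16.8 within 4 kb, and 22.7 and 9.10 beyond. Of the 379 peaks with a ratio below 1, 0 were CpG-rich. Median Ring1B densities were 6.35 at CpG-rich and 5.98 at other peaks, and input densities 0.146 and 0.554. Fewer than 3 input reads were found in 47.4% and 19.6%, so more of the CpG-rich ratios are lower bounds. The minimum height holds Ring1B densities close together here as well, so the ratios do not show how Ring1B itself varies with CpG content. Dzip3 peaks overlapped 6.33% of CpG-rich Ring1B peaks and 42.6% of the others, and ubH2A peaks 5.40% and 43.9%.

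Short motifs in the same 300-base windows were counted on both strands as a description, with no claim of binding. The E-box CACGTG was present in 7.21% of Ring1B peaks, 7.29% of the windows at transcript starts of protein-coding genes and 1.59% of input peaks. The E2F motif TTCCCGC was present in 3.13%, 5.54% and 0.147%, and within 4 kb of a TSS in 6.04% of Ring1B peaks. CGCGCG, which counts CpG density as much as any factor, was present in 7.47%, 13.3% and 0.206%. Runs of CA repeated 5 times, a common microsatellite, were in 11.2% of Ring1B peaks against 2.52% of start windows and 2.07% of input peaks, and in 15.8% of Ring1B peaks beyond 100 kb. Dzip3 and ubH2A peaks held such runs in 14.1% and 12.7%. They held the E-box in 5.69% and 6.55%, so its share was not particular to Ring1B peaks. The E2F motif was in 0.833% and 0.858% of them, and CGCGCG in 1.45% and 1.10%. Runs of GA repeated 5 times were in 1.87% of Ring1B peaks, 1.62% of start windows and 1.95% of input peaks.

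The longest peaks had more Ring1B and less input per kb than the shortest, with no steady course in between. Length and Ring1B density both come from the Ring1B reads on which the peaks were called, so their relation is in part built into the list. The shortest 10% of peaks, all 200 bp, had a median ratio of 14.3 with a Ring1B density of 5.70 and an input density of 0.362. The longest 10%, from 687 bp upward, had a median ratio of 36.0 with densities of 8.89 and 0.229. With the peaks cut by length into 10 classes of equal size, the median ratio stayed between 13.1 and 15.5 in the 7 shorter classes, and in the 3 longest it was 18.1, 23.3 and 36.0. A short peak holds few reads, and with a median of 59 Ring1B reads in the shortest class the floor of 3 input reads keeps the ratio of such a peak from going much above the median shown. The longest class held peaks of both kinds, since 53.0% of its peaks were CpG-rich, against 17.9% in the shortest, while 27.0% overlapped an input peak, against 3.16%. Summed reads gave a factor of 0.0402 between the longest and shortest class, and 0.419 without the 7 largest peaks, in the other direction from the 2.51 of the medians. Without input-overlapping peaks the summed value was 3.54 and that of the medians 3.77.

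**Figure D3:**
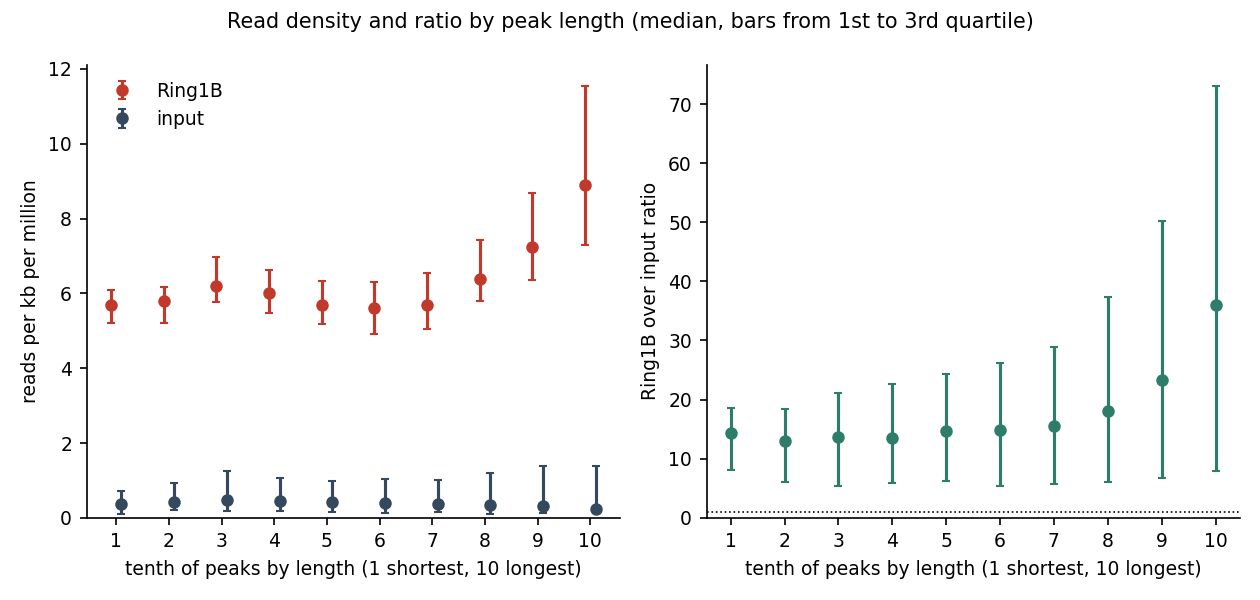
Left, median reads per kb per M for Ring1B and input in 10 classes of equal size by peak length, with bars from the lower to the upper quartile over peaks; right, the ratio in the same classes. The median ratio is flat near 14 in the shorter peaks and reaches 36.0 in the longest class, whose quartiles are widest at 7.85 and 73.0.

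Among chromosomes, X and Y stood apart by their input reads. The median ratio was between 7.62 on chromosome 14 and 20.5 on chromosome 2 over the 19 autosomes, 2.94 on X (439 peaks) and 0.825 on Y (62 peaks). Summed reads gave 1.41 on X and 0.472 on the autosomes, in the other order. Median Ring1B density on X, 5.89, was close to the 6.09 of the autosomes, while input density was 2.17 against 0.351. On Y both were higher, with a Ring1B density of 10.9 and an input density of 17.6. On X, 51.5% of peaks overlapped an input peak, on Y 93.5%, and on the autosomes 14.1%. Peaks with low ratios were crowded in one stretch of X, picked out after the values were seen. The 3 Mb from 120 Mb onward held 185 peaks with a median ratio of 1.16, and the remaining 254 X peaks had a median of 6.51. The 213 X peaks that overlapped no input peak had a median ratio of 9.33, still below the 18.97 of such autosomal peaks, with an input density of 0.577 against 0.283.

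A similar stretch, picked out in the same way, lay on chromosome 8 between 19 and 22 Mb, where 230 peaks had a median ratio of 1.08 and 98.7% overlapped an input peak. The remaining 592 peaks of chromosome 8 had a median of 19.1. Of the 379 peaks with a ratio below 1 in the whole list, 101 lay in this stretch and 66 in the stretch on X. Without input-overlapping peaks the autosomal medians ranged from 12.9 on chromosome 14 to 21.2 on chromosome 2. Of the 62 peaks on Y, 4 overlapped no input peak.

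**Figure D4:**
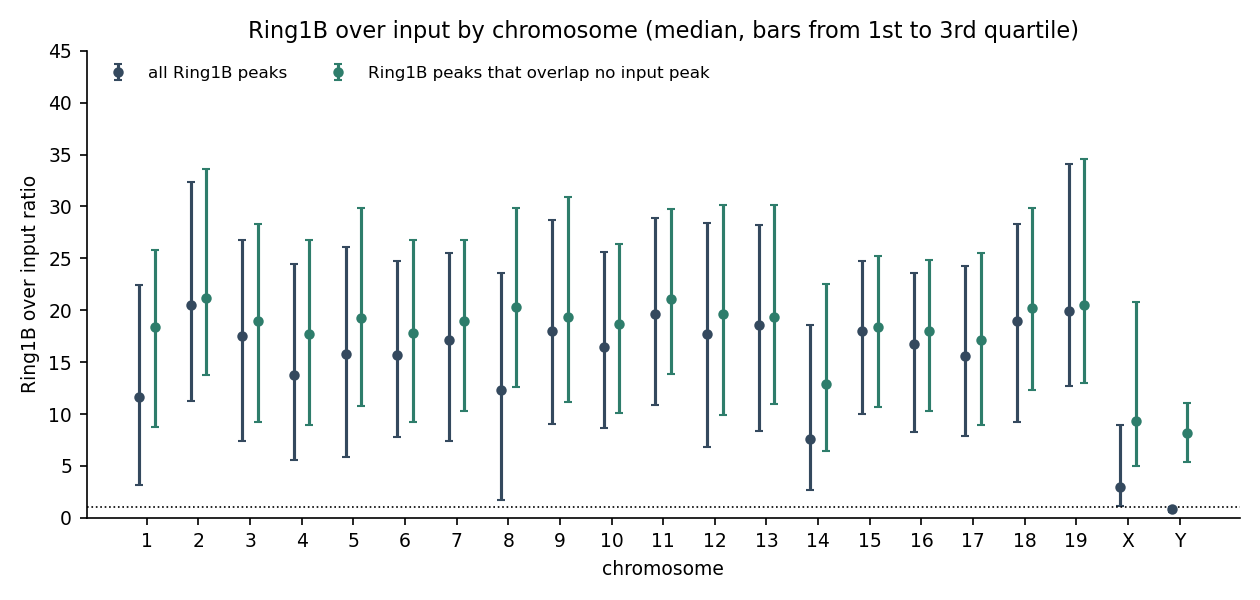
Median Ring1B over input ratio by chromosome for all Ring1B peaks and for those that overlap no input peak, with bars from the lower to the upper quartile over peaks and a dotted line at a ratio of 1. All peaks of X and Y have medians of 2.94 and 0.825, and peaks that overlap no input peak have a median of at least 8.22 on every chromosome.

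Genes were counted as marked when a peak lay within 4 kb of a TSS. Of 22380 protein-coding genes, 2238 were, or 10.0%. For 2196 of these the peak with the highest lower bound had a ratio of at least 2, and its median ratio over the marked genes was 25.2. Of the marked genes, 812 had 2 or more peaks.

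Lists of developmental regulators were marked at 71.9% to 90.0%, beside the 10.0% of all genes. Hox genes, which set position along the body axis, were marked in 32 of 39 cases (82.1%). Other homeobox genes were marked in 36 of 40 (90.0%), Sox and Fox genes in 20 of 23, and T-box and Gata genes, with roles in mesoderm and endoderm, in 15 of 18. Proneural bHLH genes were marked in 12 of 16 and ligands of the Wnt, Fgf, Bmp and Hedgehog families in 23 of 32 (71.9%). At each marked gene of these 6 lists the peak had a ratio of at least 2, the lowest being 10.99. Median ratios over the marked genes were 50.3 for Hox, 71.3 for homeobox, 70.6 for Sox and Fox, 42.0 for T-box and Gata, 90.3 for proneural bHLH and 50.5 for the ligands, against 25.2 over all marked genes. Each gene counts by its peak with the highest lower bound, so genes with more peaks have more to choose from. In the same order 27 of 32, 36 of 36, 19 of 20, 14 of 15, 7 of 12 and 14 of 23 had 2 or more peaks. Of all marked genes, 812 of 2238 did. Some neighbouring Hox genes shared 1 peak. The peak was CpG-rich at 19 of the 20 marked Sox and Fox genes and 9 of the 15 T-box and Gata genes, against 63.5% of all marked genes.

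The other 4 lists were marked at 7.69% to 14.3%, and their 95% Wilson intervals held the 10.0% of all genes. Of 16 housekeeping genes 2 were marked, of 13 genes of naive pluripotency 1, of 26 genes for Polycomb proteins and Dzip3 3, and of 7 genes for inhibitors of cyclin-dependent kinases 1. Pou5f1, Sox2 and Nanog, the central factors of pluripotency, had no peak within 4 kb. The one pluripotency gene with a peak was Esrrb, an orphan nuclear receptor, where a peak of 316 bp in a 5′ UTR had 121 Ring1B and 5 input reads, a ratio of 22.6 (9.41 to 70.8). Among the Polycomb genes with a peak were Cbx8 and Phc2, which encode PRC1 subunits, with ratios of 54.3 and 13.5. Cdkn1c, an imprinted inhibitor gene, had 323 Ring1B and 4 input reads, a ratio of 75.3. At the housekeeping gene Eef2, a translation elongation factor, the peak had 196 Ring1B and 34 input reads, a ratio of 5.38 (3.72 to 7.99), and unlike the peaks of the other genes named here from the lists it also overlapped ubH2A and Dzip3 peaks.

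**Figure D5:**
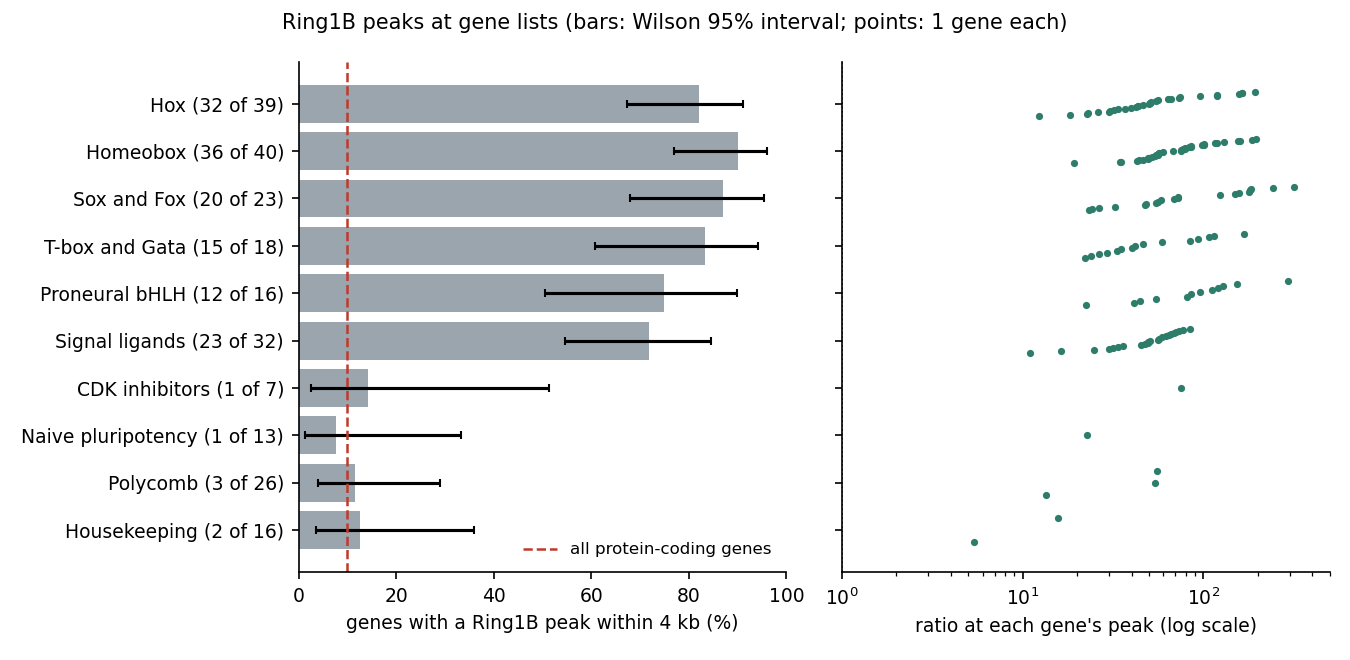
Left, the share of each gene list with a Ring1B peak within 4 kb of a TSS, with 95% Wilson intervals and a dashed line at the 10.0% of all protein-coding genes; right, on a log scale, the Ring1B over input ratio at the peak of each marked gene. The 6 developmental lists lie between 71.9% and 90.0%, and the other 4 between 7.69% and 14.3%.

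At the genes with the highest lower bounds in each list, 345 to 1888 Ring1B reads stood beside 0 to 21 input reads in the 6 developmental lists. Hoxd9 had 383 Ring1B and 0 input reads in a peak of 921 bp in its coding sequence. With input at the floor of 3 reads its ratio was 119, with an interval from 96.4 upward. Hoxd11 had 621 and 2 in a 5′ UTR, a ratio of 289.7 (79.9 to 2398). Hoxa9 had 526 and 2, a ratio of 245 (67.6 to 2032). Among other homeobox genes, Cdx2, a factor of trophectoderm and gut, had 1199 and 6, a ratio of 186 (85.4 to 509), and the eye factor gene Pax6 had 632 and 2, a ratio of 295 (81.3 to 2439.9). Nkx2-2, of the ventral neural tube, had 514 and 1, a ratio with an interval from 85.7 upward that 1 input read leaves wide. Foxc1 had 1038 and 4 (ratio 242, 94.3 to 890.3) and Foxl2, a factor of the ovary, 1275 and 8 (ratio 149, 75.2 to 345). In the bHLH list Olig3 had 389 and 0, a ratio of 121 at the floor with an interval from 97.9 upward. Olig1 had 491 and 2, a ratio of 229 (63.1 to 1897). The endoderm factor gene Gata6 had 1075 and 6 (ratio 167, 76.5 to 457) and Tbx1 1207 and 12 (ratio 93.9, 53.5 to 182). The ligand genes had 1448 and 21 reads at Wnt1 (ratio 64.3, 41.9 to 104), 1087 and 18 at Ihh (ratio 56.4, 35.5 to 95.4) and 474 and 6 at Bmp6 (ratio 73.7, 33.6 to 202).

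The 4 Hox clusters, taken with 20 kb on either side, held 18 to 57 Ring1B peaks each, free of input peaks. The Hoxa cluster held 57 peaks that covered 20.4% of its 145.5 kb, Hoxd 34 peaks over 13.5%, Hoxb 29 over 6.201% and Hoxc 18 over 5.07%. Summed Ring1B over input was 25.4 in Hoxa, 39.4 in Hoxd, 26.7 in Hoxb and 32.4 in Hoxc, from 11935, 8142, 5641 and 3058 Ring1B reads. Over all Ring1B peaks that overlapped no input peak it was 19.6, and 33.7 over those within 4 kb of a TSS. Median ratios in the same order of clusters were 19.4, 32.5, 23.3 and 22.5, beside 24.3 for such peaks within 4 kb. The lowest ratio of any single peak in the 4 clusters was 6.14, and 0 of these peaks overlapped an input or ubH2A peak and 1, in Hoxc, a Dzip3 peak. The other 7 of the 39 Hox genes had no peak within 4 kb.

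Of 5 genes that the study follows as lineage markers, T and Eomes, both T-box genes of early mesoderm, had 3 peaks each. At T the peak with the highest lower bound had 345 Ring1B reads and 1 input read, a ratio of 322 (57.4 to 12751). At Eomes it had 85 and 0, a ratio of 26.4 with input at the floor of 3 reads and an interval from 21.0 upward. Rhox6 and Stra8, genes of the germ line, and Acta1, the skeletal muscle actin gene, had no Ring1B peak within 4 kb of a TSS.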

How the data were processed

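ChIP-seq values of E14 mES cells were taken from the 4 peak lists that the authors deposited, 1 each for Ring1B, input DNA, Dzip3 and ubH2A. The authors aligned reads to mm9 (the build named in the submitters' processing notes) allowing 1 mismatch, and called peaks on each library in the Partek Genomics Suite, FDR 0.1. The deposited values are counts of reads of each library in the peak and of extended reads in its highest window, that height as RPM, a p-value and a scaled ratio (fold) against input DNA, and the percent of the peak covered by peaks of other libraries. The deposited RPM and fold were normalized for library size by the authors. The p-value was used only to rank peaks in an alternative. The methods describe micrococcal nuclease and the labels a Picoruptor for fragmentation. The methods mention an IgG control, which was not analysed here.

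Rows with other than 18 fields were left out, which removed 0 rows for Ring1B and 1 each for ubH2A and input, and with it a block of rows on chromosomes 1 and 10 to 12 of those lists. Library sizes were computed as extended reads over RPM. Reads were divided by peak length in kb and library size, input counts under 3 were set to 3 in ratios that enter a median or a share, and a ratio of at least 2 was counted. For a named peak with 1 or 2 input reads the ratio of the counts themselves is given, and for one with 0 the ratio at the floor of 3. Intervals of single ratios are exact conditional binomial (Clopper-Pearson) ones at 95%, for counting error only. Those of shares are Wilson ones at 95%, which treat peaks or genes as independent. Peaks are not replicates, and no test was made. Distances run from the nearest edge of a peak to a TSS of a protein-coding transcript, and features are those at its midpoint, from GENCODE vM1 (Ensembl release 65) on the mm9 assembly NCBIM37, whose sequence served for base composition. A share of repeats was not computed.

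Named peaks are the 8 with the highest lower bound, the 5 with the lowest upper bound and the 5 longest. Named genes are the up to 3 of each list with the highest lower bound and 5 lineage genes of the study. A few of the genes this names are not reported here. Genes of the lists without a peak, and the stretches of chromosomes X and 8, were named after their values were seen. Of the listed symbols, Sox1 and Tfcp2l1 had no match in the annotation. The peaks, lists and alternatives were chosen with earlier results of these data known. Alternatives changed the scaling, the floor, the peaks included, the distance and the annotation. The functions were tested on simulated data. Scripts ran in Python 3.11.15 (scipy 1.17.1, numpy 2.4.6, matplotlib 3.10.9, pandas 2.3.3).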

Additional observations from a re-analysis of the deposited data

How the results depend on the processing

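The median ratio of 15.9 was 17 without scaling for library size, 14.0 with library sizes that leave out the 7 largest peaks, 13.6 as the caller's own fold and 13.8 with 1 read added to both counts. It was 18.97 without input-overlapping peaks, 25.2 in the stronger 50% of peaks and 4.02 in peaks with at least 10 input reads. Scaling on input peaks without a Ring1B peak, which were chosen for high input, gave 76.5. Under the same scaling choices (none, largest peaks left out, input peaks) the share with a ratio of at least 2 was 90.6, 88.6 and 99.4%, and the share below 1 was 3.20, 4.82 and 0.148%. Without input-overlapping peaks these shares were 99.9 and 0%. Merging peaks within 1 kb gave 92.9% with at least 2, and autosomes and X alone 3.35% below 1. The share within 4 kb of a TSS was 43.2% with starts of all genes, 23.8% at 1 kb, 41.1% without input-overlapping peaks and 31.7% after merging. The intergenic share was 40.7% with no base in a transcript and 47.3% with protein-coding transcripts only.

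The ratio of medians within 4 kb to beyond 100 kb, 2.56, became 1.96 without input-overlapping peaks and 3.12 with 1 read added. Summed reads gave 0.884, which reversed it, 4.45 without the 7 largest peaks and 2.95 without input-overlapping peaks. The longest to shortest class of length, 2.51, became 3.77 without input-overlapping peaks, and summed reads gave 0.0402 and, without the 7 largest peaks, 0.419, both reversed, but 3.54 without input-overlapping peaks. X to autosomes, 0.177, became 0.492 without input-overlapping peaks and 0.392 without its stretch of 3 Mb, while summed reads gave 2.98, reversed, 0.256 without the 7 largest and 0.447 without input-overlapping peaks. Summed reads without the largest or overlapping peaks, library sizes without the largest peaks, leaving out the X stretch and leaving out peaks with fewer reads than their height were chosen after seeing the data. The other 13 recomputed values stayed within their intervals or, for counts of genes, within 1.5 times.

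No paired analysis was possible because each target has a single library. The median peak had 6 input reads and 27.3% of peaks had fewer than 3, which limits the ratio of a single peak.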

Other observations

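Ring1B peaks that stood alone, with no Dzip3, ubH2A or input peak on them, were 5924 of the 10119 (58.5%). Their median Ring1B over input ratio was 20.5, 43.4% were CpG-rich and their GC content had a median of 59.6%. The 1135 peaks shared with Dzip3 and ubH2A but not input had a median ratio of 10.9, 6.43% were CpG-rich and their GC content was 50.7%. The 1385 peaks shared with all 3 other libraries had a median ratio of 1.67 and a GC content of 45.2%. Ring1B density was 5.99, 6.60 and 7.53 in these groups and input density 0.207, 0.708 and 4.51, so both rose from the first group to the last. The last group was defined by peaks called on the same input reads, which in large part fixes its input density. Peaks with other combinations of overlaps are not described here.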
